A study of Mus musculus with 4 samples.

Results

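Macrophages are phagocytic cells of the blood-forming lineage, and osteoclasts are the bone-resorbing cells that form when their precursors fuse. Both need CSF1, which signals through the receptor CSF1R, and the transcription factor PU.1. Osteoclasts further need RANKL, a ligand made by osteoblasts, which switches on genes for acid secretion, cell fusion and matrix digestion. Neither cell type arises from osteoblasts, the bone-forming cells, yet macrophages are common companions of osteoblasts in bone and in cells isolated from bone.

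The set described here holds 37 genes of macrophages and osteoclasts, taken by symbol from 18194 genes with a probe set that carried 1 symbol. All 37 were found. Of these, 32 are macrophage or wider leukocyte genes and 5 are osteoclast genes (Acp5, Ctsk, Oscar, Atp6v0d2 and Dcstamp). Each gene was read from its probe set with the highest mean log2 intensity over the 4 arrays. An intensity of 66.2, the median of all probe sets that were not controls, served as a mark of brightness, and 29 genes had a geometric mean at or above it. Of all 18194 genes, 11662 did. Just above the mark were Acp5 with a geometric mean of 75.5 and Cybb with 80.5, and just below it were Ncf4 with 61.9 and Ptprc with 63.8.

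The cells were cultured mouse cells labelled as osteoblasts. Of 4 arrays, 1 held a control taken at 0 h, and 1 each held cells exposed to insulin, at 10 nM, over 6, 12 or 24 h. The growth protocol says that the cells, control included, lacked the IGF-1 receptor and were taken to confluence, and the genotype entry names IGF-1 itself as null. Insulin was added after serum starvation. The sources used here do not give how the receptor was removed, nor whether the cells were a clone, a pool or a primary isolate. With no replicate, every difference below is between single arrays and carries no error and no p-value. Precision is set by how few arrays there are. No array of untreated cells at a later time was analysed, so insulin and hours in culture cannot be told apart.

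The 0 h array stood apart from the insulin arrays in ways that touch each comparison with it. The Y-linked gene Eif2s3y had intensities of 12.2, 295, 305 and 326 at 0, 6, 12 and 24 h, and Xist, a non-coding RNA that coats an inactive X, had 109, 1636, 1278 and 1463. Chromosome medians of the mean insulin minus 0 h difference ran from -0.24 to 0.33 on the log2 scale, against -0.02 to 0.01 for 24 h minus 6 h. Whether the 0 h array held the same cells, or the same mix of cells, as the insulin arrays was not tested. A difference in cells cannot be told apart from insulin or hours in culture. Counts without the chromosome medians are given with the C1q genes. Differences between the 3 insulin arrays do not use the 0 h array, and they are given separately. The osteoblast label was checked with 10 osteoblast genes, of which 7 had a probe set here. All 7 reached the brightness mark on each insulin array, and 4 did at 0 h, when Sp7, Alpl and Pth1r were below it at 60.8, 61.5 and 36.9. Summed intensities were 35150 at 0 h and 55583 to 67306 with insulin. Most of each sum came from the collagen genes Col1a1 and Col1a2, with 13802 and 20828 at 0 h, so the sums say little of the other osteoblast genes.

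Most macrophage genes were higher on the insulin arrays than at 0 h, and they were higher again at 24 h than at 6 h. A difference of 2-fold or more above 0 h was seen for 20, 20 and 22 of the 32 macrophage and leukocyte genes at 6, 12 and 24 h. Among the 5 osteoclast genes it was seen for 1, 1 and 2. Over all 18194 genes the shares were 7.27%, 8.22% and 7.83%. At all 3 times together 20 macrophage genes and 0 osteoclast genes passed, against 6.72% of all genes, and 0 of 5 is not set apart from that share. The median log2 difference from 0 h was 1.99, 2.44 and 2.56 for the macrophage genes, 0.44, 0.62 and 0.55 for the osteoclast genes, and -0.03, -0.03 and -0.05 for all genes. The osteoclast median is that of Atp6v0d2 at each time, a gene below the brightness mark on every array. Over the 2 osteoclast genes above the mark, Acp5 and Ctsk, it was 0.94, 1.11 and 1.08. Acp5 was below the mark at 0 h, with 43.3, and passed it only through its insulin arrays, which favours a larger difference. The 3 comparisons share the 0 h array, so they are not separate evidence. The difference between both classes was not tested. In RNA from a whole culture, fewer cells of a type and less RNA per cell cannot be told apart.

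The same pattern is seen in how many of the 37 genes were bright at all. At or above the mark of 66.2 were 11 genes at 0 h, 29 at 6 h and 31 at both 12 h and 24 h. Below the lower quartile of probe sets were 6 genes at 0 h, 1 at 6 h and none at 12 or 24 h. For the 26 genes below the mark at 0 h a fold over 0 h is a ratio to a dim intensity, and its size is uncertain. With all intensities below the mark raised to it, an alternative chosen after seeing the data, 19, 19 and 22 of the 37 passed 2-fold at 6, 12 and 24 h, against 6.05%, 6.88% and 6.51% of all genes. The summed intensity of the 32 macrophage genes was 3304 at 0 h, 19359 at 6 h, 23919 at 12 h and 27355 at 24 h. On the insulin arrays most of it came from Lyz1 and Lyz2, with 10907 and 4914 at 24 h. In the Lyz1 probe set used, the signals of these genes cannot be told apart, so the sum may count one signal again. The summed intensity of the 5 osteoclast genes was 1888, 3711, 3625 and 3746, most of it from Ctsk, with 1704 at 0 h and 3503 at 24 h.

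**Figure D1:**
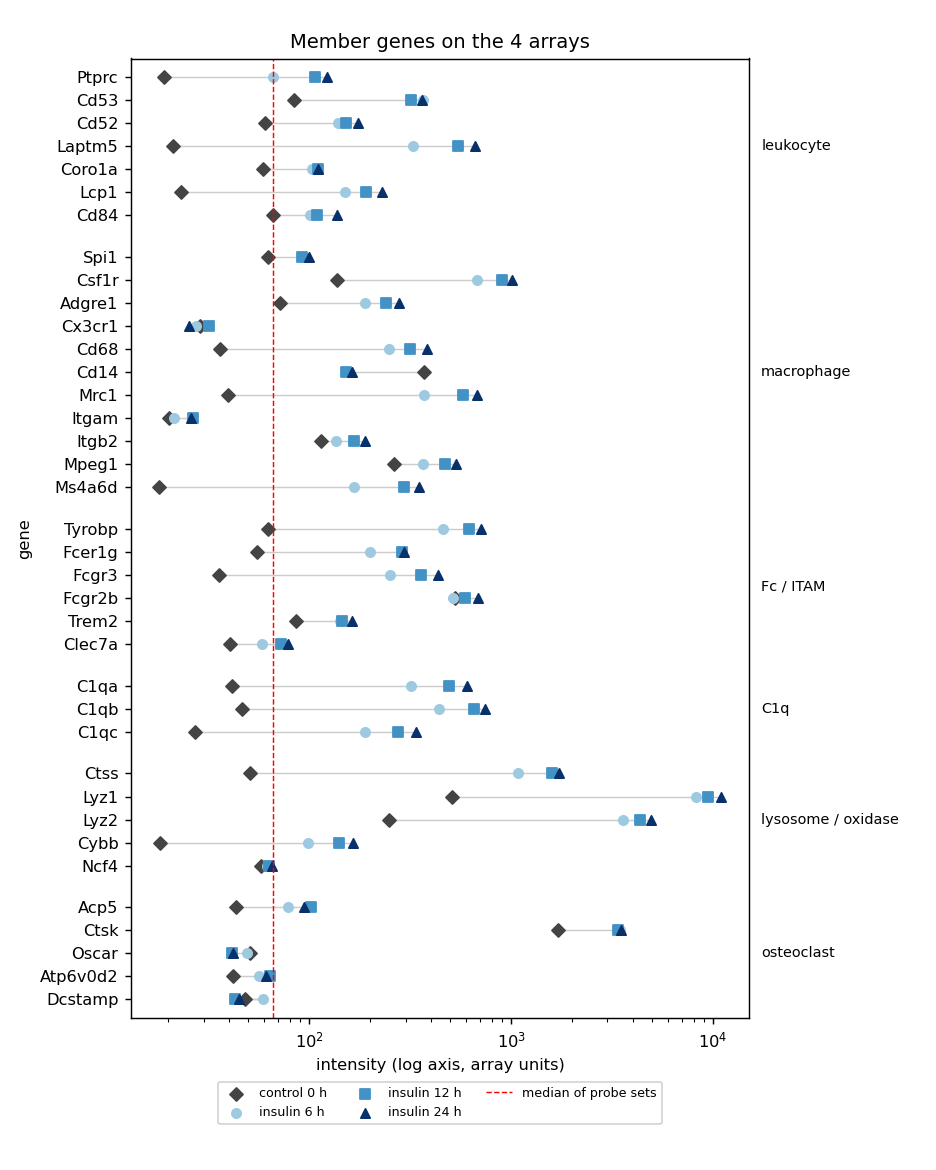
Intensity (log axis, array units) of the 37 genes on the control 0 h array and the insulin 6, 12 and 24 h arrays, 1 marker per array, grouped by role, with a dashed line at the brightness mark of 66.2. Of 32 macrophage genes, 22 have their 0 h marker left of the line, and 17 of them have all 3 insulin markers right of it, while Cd14 is highest at 0 h and 3 of 5 osteoclast genes stay left of the line on every array.

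Genes for receptors and factors that define macrophages differed in how they behaved. Csf1r, the receptor for CSF1 and IL-34, had intensities of 137, 676, 900.1 and 1006 at 0, 6, 12 and 24 h. Its other probe sets ran the same way, with 188, 311, 390.3 and 480.3 for one and 138, 208, 251 and 254 for the other. At 24 h the 3 probe sets were 7.34, 2.55 and 1.85-fold higher than at 0 h, so the size of the difference depended on the probe set. Adgre1, which encodes the macrophage marker F4/80, had 72.0, 190.0, 241 and 278. Spi1, which encodes PU.1, had 62.5, 94.6, 92.0 and 99.7, which was 1.60-fold higher at 24 h than at 0 h. All 3 of these genes were lowest on the 0 h array, and Spi1 had the smallest difference among them.

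Of the 11 genes grouped as macrophage identity, to which these 3 belong, 5, 5 and 6 were past 2-fold above 0 h at 6, 12 and 24 h, with a median of 1.03 at 24 h on the log2 scale. Over all genes the shares were 7.27%, 8.22% and 7.83%. Mrc1, the mannose receptor, had 39.7, 372, 575 and 675 and was 17.0-fold higher at 24 h, or at least 10.2-fold over the mark itself. Ms4a6d, a 4-span membrane protein of macrophages, had 18.1, 166, 296 and 349, and its dimmer second probe set had 10.1, 87.3, 117 and 141. Its remaining probe set stayed between 8.92 and 9.92. Cd68, a glycoprotein of late endosomes, had 36.1, 248, 317 and 382, and Mpeg1, the pore-forming perforin-2, had 262, 368, 472 and 534. Mpeg1 was thus above the mark at 0 h already and 2.04-fold higher at 24 h, while Cd68 was 10.6-fold higher, or at least 5.78-fold over the mark itself.

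Of the integrin and chemokine receptor genes, Itgb2 alone could be read. Itgb2, the beta-2 chain that pairs with several leukocyte integrin alpha chains, had 115, 136, 166 and 189, which was 1.65-fold higher at 24 h than at 0 h. Itgam, the alpha chain of Mac-1 (CD11b), was dim on all 4 arrays with 20.3, 21.3, 26.6 and 26.1. Cx3cr1, the fractalkine receptor, was dim as well, with 28.7, 27.7, 32.0 and 25.5. Neither dim gene reached the mark on any array, so no level can be read for them, and for a probe set this dim a small change would not show.

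Cd14 went the other way. It encodes a co-receptor for bacterial lipopolysaccharide that fibroblast-like cells can also make, and its single probe set had 155, 153 and 162 on the insulin arrays at 6, 12 and 24 h, against 370.1 at 0 h. This was 2.39, 2.42 and 2.28-fold lower, and Cd14 was alone among the 37 genes in being at least 2-fold lower at any of the 3 times. Over all genes 3.48%, 3.94% and 3.62% were lower by that much. Between insulin arrays Cd14 barely differed, at 1.05-fold for 24 h over 6 h.

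Of 6 genes for Fc receptors, their adaptors and related receptors, 3 were past 2-fold above 0 h at each time, against 7.27% to 8.22% of all genes. These were Tyrobp, Fcer1g and Fcgr3. Tyrobp, the adaptor DAP12 that carries an ITAM, an activation motif, had 62.7, 461, 618 and 713. Fcer1g, the common gamma chain of Fc receptors, had 54.9, 199.6, 289.6 and 294. Fcgr3, an activating receptor for IgG, had 35.8, 251, 357 and 434. At 24 h these were 11.4, 5.36 and 12.1-fold higher than at 0 h. All were below the mark at 0 h, and over the mark itself they were at least 10.8, 4.45 and 6.56-fold higher. Clec7a, the beta-glucan receptor dectin-1, had 40.5, 58.4, 72.4 and 78.9, so it passed the mark at 12 and 24 h and was under 2-fold above 0 h.

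Fcgr2b, the inhibitory IgG receptor, and Trem2, a lipid-sensing receptor that signals through DAP12, gave answers that depended on the probe set. By its brightest probe set Fcgr2b had 527, 518, 591 and 689, or 1.31-fold higher at 24 h than at 0 h. The next 3 probe sets had 22.5, 254, 453 and 546, then 50.5, 206, 299 and 364, then 76.1, 206, 284 and 333, so at 24 h they were higher than at 0 h. Because the first 2 were below the mark at 0 h, their folds are given over the mark itself, as at least 8.25 and at least 5.51-fold, and the last was 4.38-fold higher. The fifth stayed between 9.49 and 11.2. Trem2 had 86.6, 143, 146 and 162 by the probe set used, while its other probe set had 113, 94.1, 85.8 and 82.5 and so ran the opposite way.

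C1q, the recognition part of the classical complement pathway, is built from chains encoded by C1qa, C1qb and C1qc, and macrophages are a main source of it. These genes are neighbours on chromosome 4, with C1qc between C1qb and C1qa. C1qa had 41.6, 319, 494 and 606, C1qb had 46.4, 439, 657 and 745, and C1qc had 27.4, 189, 275 and 337. All were below the mark at 0 h and increased in order of time on the other arrays. Over the mark itself they were at least 9.15, 11.3 and 5.09-fold higher at 24 h, and the ratios to their dim 0 h intensities were 14.6, 16.0 and 12.3. Both other probe sets of C1qb ran the same way, and over the mark itself they were at least 14.6 and at least 7.71-fold higher at 24 h. Both carry the suffix x, given where probes may bind other transcripts, and the probe set used does not. Chromosome 4 also had the highest chromosome median against 0 h, 0.33 on the log2 scale, and it holds Cd52, Laptm5 and Atp6v0d2 as well. With chromosome medians taken away, an alternative chosen after seeing the data, 20, 21 and 24 of the 37 genes passed 2-fold at 6, 12 and 24 h, against 21, 21 and 24 without that step. No share of all genes was counted with that step.

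Lysosomal and antibacterial genes had some of the largest differences. Ctss, cathepsin S, a protease that trims the invariant chain for antigen presentation, had 51.0, 1079, 1601 and 1721, which was 33.7-fold higher at 24 h than at 0 h. Cybb, the gp91phox subunit of the phagocyte NADPH oxidase, had 18.2, 99.04, 141 and 165. Ncf4, the p40phox subunit of the same oxidase, had 57.7, 61.5, 63.0 and 65.7 and stayed just under the mark on all 4 arrays, so no fold is read for it. Cybb was below the mark at 0 h and above it on the insulin arrays.

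The lysozyme genes Lyz1 and Lyz2 are near-identical neighbours, of which Lyz2 is the form of macrophages and Lyz1 that of intestinal Paneth cells. Lyz2 had 248, 3565, 4354 and 4914. By the probe set used, Lyz1 had 512, 8269.7, 9456 and 10907, and a second Lyz1 probe set had 230.4, 3200.0, 4185 and 4968. Both carry the suffix x, which Affymetrix gives where probes may bind other transcripts. The Lyz1 probe set without that suffix had 41.5, 41.8, 56.9 and 52.1, below the mark on every array. Signal from Lyz1 and Lyz2 can therefore not be told apart in the bright Lyz1 probe sets, by which Lyz1 is counted here. The Lyz2 probe set carries no such suffix. The 250 bases before each start site, from RefSeq in GRCm38.p6, are shown because they show how close the copies are. They aligned over 248 positions with 200 identical (80.6%), at chr10:117292869-117293118 for Lyz1 and chr10:117282273-117282522 for Lyz2, both on the minus strand and both 5′ to 3′ along the gene.
Lyz1: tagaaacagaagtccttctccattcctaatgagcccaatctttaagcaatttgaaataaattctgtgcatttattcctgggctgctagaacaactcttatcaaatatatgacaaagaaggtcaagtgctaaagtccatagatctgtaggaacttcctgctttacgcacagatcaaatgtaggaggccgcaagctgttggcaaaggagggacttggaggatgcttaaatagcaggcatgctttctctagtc
Lyz2: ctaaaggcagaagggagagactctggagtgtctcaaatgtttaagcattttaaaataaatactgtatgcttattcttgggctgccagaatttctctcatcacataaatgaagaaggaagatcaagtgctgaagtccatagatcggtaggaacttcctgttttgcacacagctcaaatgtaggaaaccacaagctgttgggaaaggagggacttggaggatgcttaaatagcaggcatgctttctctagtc

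Genes shared by most white blood cells were higher too. Laptm5, a lysosomal membrane protein that lowers surface receptor levels, had 21.1, 327, 545 and 661 by its brightest probe set, which carries the suffix x. Its other probe sets did not bear out the size of this, with 134, 205, 288 and 293 in one, 102, 107, 115 and 134 in another, and 107, 83.8, 76.8 and 85.9 in one more, while the fifth stayed between 12.5 and 17.5. At 24 h against 0 h the 4 brighter ones gave 31.3, 2.18, 1.31 and 0.805-fold. The direction for Laptm5 thus flips in the last of these, its only probe set without a suffix. The 31.3-fold is a ratio to a dim 0 h intensity, and over the mark itself it is at least 9.98-fold. Lcp1, the actin bundler L-plastin, had 23.3, 150.2, 192 and 229.6, and its second probe set had 56.6, 116, 122 and 158.

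Ptprc, the phosphatase CD45 found on all white blood cells, had 19.1, 66.1, 107 and 123. It was dim at 0 h and passed the mark at 12 and 24 h. Cd53, a tetraspanin of leukocytes, had 83.9, 365, 319 and 361, and Cd52, a small surface glycoprotein, had 60.4, 139, 153 and 174. Cd84, a SLAM family receptor, had 66.2, 101, 109 and 137. Coro1a, an actin regulator of leukocytes, had 59.4, 104, 110.2 and 111 and was less than 2-fold higher at each time. Cd53 differed from the others in that its highest intensity was at 6 h.

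**Figure D2:**
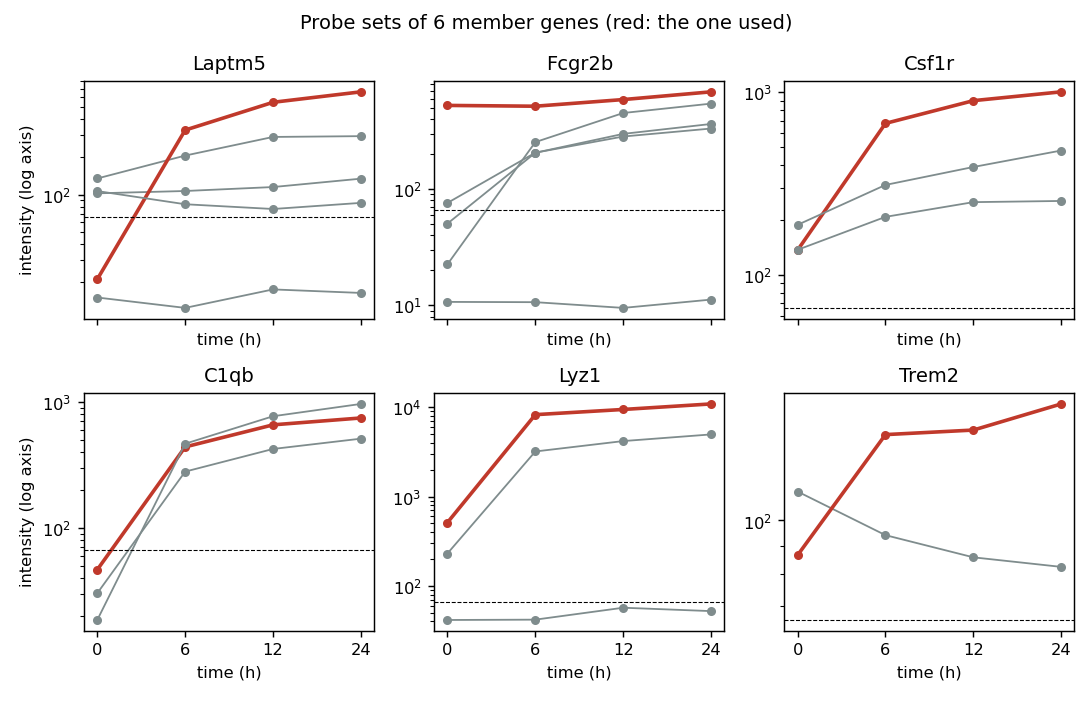
Intensity (log axis, array units) against time (0, 6, 12 and 24 h; 0 h is the control) for each probe set of 6 genes, 1 line per probe set, in red the one used for the gene and in grey the others, with a dashed line at 66.2. C1qb and Csf1r have all lines higher after 0 h, while Laptm5, Fcgr2b, Lyz1 and Trem2 have lines that differ from the red one in size or direction.

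The osteoclast genes were nearer to their 0 h values than most macrophage genes were. Ctsk, cathepsin K, the collagen-degrading protease of osteoclasts, which osteoblast-lineage and fibroblast cells also express, had 1704, 3468, 3374 and 3503 and stayed level between the insulin arrays. Acp5, the tartrate-resistant acid phosphatase TRAP, had 43.3, 78.4, 102 and 94.0. Ctsk was 2.06-fold and Acp5 2.17-fold higher at 24 h than at 0 h. Acp5 was below the mark at 0 h, and over the mark itself it was at least 1.42-fold higher.

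The genes most closely tied to formed osteoclasts were dim throughout. Dcstamp, a membrane protein needed for cell fusion, had 48.1, 59.0, 43.0 and 45.1. Atp6v0d2, a subunit of the proton pump, had 41.8, 56.7, 64.3 and 61.3. Oscar, a receptor that co-stimulates osteoclast formation, had 51.0, 49.5, 41.4 and 42.1. None of these 3 reached the mark on any array, so their folds are not read.

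A list of 13 further osteoclast genes, of which 12 had a probe set, was measured as well. Against 0 h, 1 (Nfatc1) passed 2-fold upward and 1 (Mmp9) downward at each of the 3 times, a share close to that over all genes in the upward direction (7.27% to 8.22%). Downward the share over all genes was 3.48% to 3.94%. The list median at 24 h was -0.17 on the log2 scale. Nfatc1, the master transcription factor of osteoclast formation, had 116, 298, 311 and 309. Mmp9, a gelatinase of osteoclasts, had 52.4, 51.2 and 53.7 on the insulin arrays, against 249.3 at 0 h. Ostm1, which serves the osteoclast chloride channel and is present in many cells, had 595, 999.9, 1018 and 959.

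Between insulin arrays most macrophage genes were higher at the later time, and the median of the osteoclast genes was about level. These differences do not rest on the 0 h array. At 24 h against 6 h, 13 of 32 macrophage genes and 0 of 5 osteoclast genes were at least 1.5-fold higher, against 1.28% of all genes. None of the 37 was 1.5-fold lower, against 0.159% of all genes for 24 h against 6 h, 0.308% for 12 h against 6 h and 0.143% for 24 h against 12 h. At 12 h against 6 h, 5 macrophage genes and 0 osteoclast genes passed that size (0.896% of all genes), and at 24 h against 12 h none did (0.132%). The median log2 difference for 24 h minus 6 h was 0.54 in the macrophage genes, 0.01 in the osteoclast genes and -0.01 over all genes. By any amount 30 of 32 macrophage genes and 3 of 5 osteoclast genes were higher at 24 h than at 6 h, against 47.5% of all genes. Singly the osteoclast genes ran from 0.764-fold for Dcstamp to 1.20-fold for Acp5 at 24 h over 6 h. Of the 5, 3 were below the mark on every array, and with shares of all genes this small 0 of 5 does not set them apart. The comparisons with 6 h share that array, and none of these counts was tested.

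Among the genes past 1.5-fold, Ms4a6d was 2.10-fold and Laptm5 2.02-fold higher at 24 h than at 6 h, and they were the 2 members among 50 genes above the mark that were at least 2-fold higher. For Laptm5 this rests on the probe set, since the others above the mark gave 1.43, 1.255 and 1.03-fold. Fcgr2b was 1.33-fold higher by the probe set used and 2.15, 1.77 and 1.61-fold by its 3 others above the mark. All 3 C1q genes passed, at 1.90-fold for C1qa, 1.78-fold for C1qc and 1.70-fold for C1qb. Ptprc was 1.87-fold, Mrc1 1.81-fold, Fcgr3 1.73-fold and Cybb 1.66-fold higher. Ctss followed with 1.59-fold, Tyrobp with 1.55-fold, Cd68 with 1.54-fold and Lcp1 with 1.53-fold. Csf1r, Fcer1g, Adgre1 and Mpeg1 lay just under that size, at 1.49, 1.47, 1.46 and 1.45-fold.

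The step was larger early than late. The macrophage median was 0.35 for 12 h minus 6 h and 0.19 for 24 h minus 12 h, on the log2 scale, and 29 and 30 of the 32 genes were higher at the later time. An intensity that increased at every step, from 0 h through 6 and 12 h to 24 h, was found in 26 of 32 macrophage genes and 0 of 5 osteoclast genes, against 7.28% of all genes. With 5 genes, 0 is not set apart from that share. The exceptions among macrophage genes were Cd53, Spi1, Cx3cr1, Cd14, Itgam and Fcgr2b. Fcgr2b fails only at the first step, by a small margin in its brightest probe set. Counting probe sets in place of genes, 35 of 65 were at least 2-fold higher at 24 h than at 0 h and 1 was lower by that much, against 6.52% and 4.29% of all 34958 probe sets with 1 symbol. For 24 h against 6 h, 21 of 65 were at least 1.5-fold higher and 0 were lower by that much, against 1.07% and 0.449%. Probe sets of a gene are not independent.

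**Figure D3:**
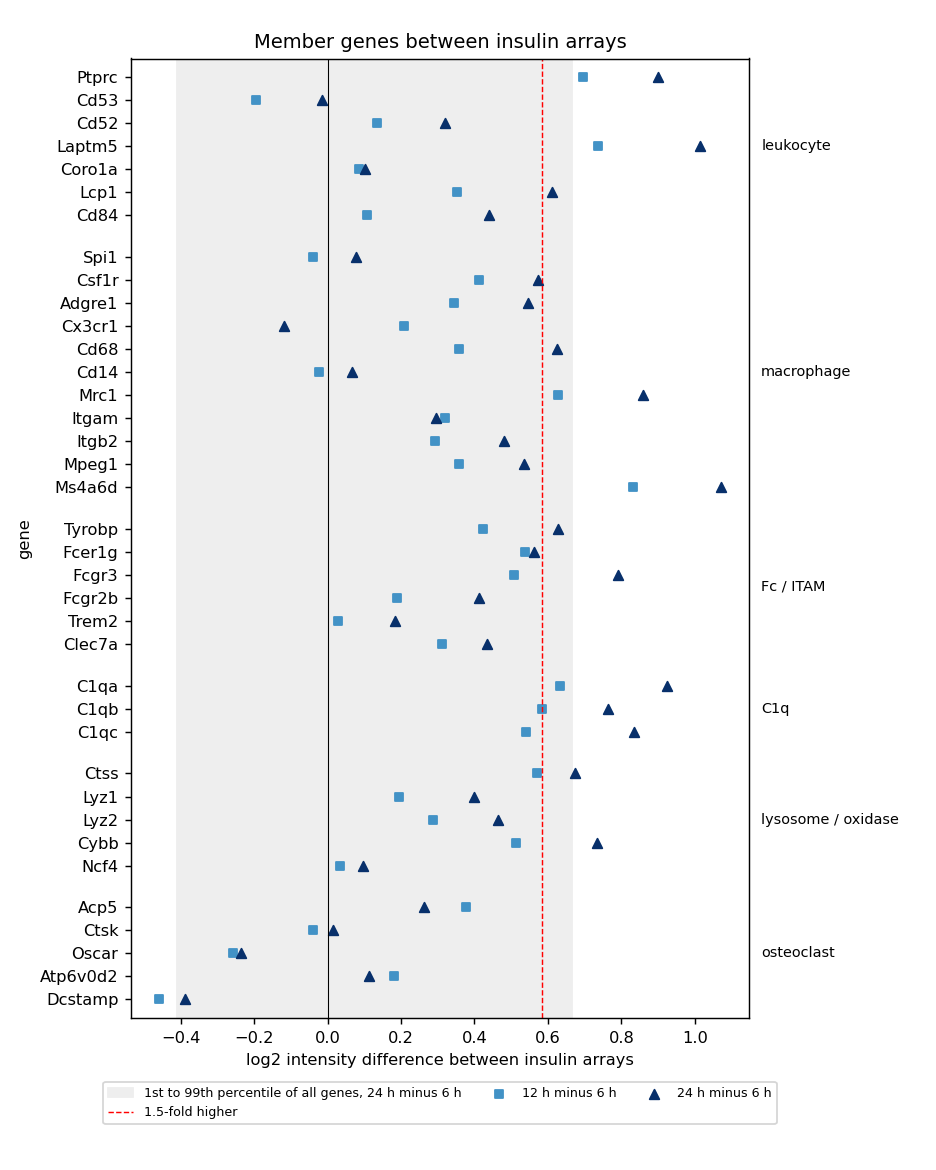
Log2 intensity difference between insulin arrays for the 37 genes, with squares for 12 h minus 6 h and triangles for 24 h minus 6 h, a dashed line at 1.5-fold and a grey band from the 1st to the 99th percentile of all genes for 24 h minus 6 h (-0.41 to 0.66). The C1q genes, Ptprc, Laptm5, Mrc1, Ms4a6d, Fcgr3, Ctss and Cybb have triangles right of the band, while the triangles of the osteoclast genes lie within it.

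Further macrophage genes were higher less often, a difference that was not tested. Of 32 listed, 30 had a probe set. Past 2-fold above 0 h were 7, 10 and 9 of them at 6, 12 and 24 h, and 1 was lower by that much each time. Over all genes 7.27%, 8.22% and 7.83% were higher, and 3.48%, 3.94% and 3.62% lower, by that much. The medians were 0.43, 0.55 and 0.59 on the log2 scale. Gpnmb, a glycoprotein of macrophages and osteoblasts, had 69.1, 1181, 1152 and 1238. Marco, a scavenger receptor, had 45.8, 131, 237 and 276, and Sirpa, which binds CD47 on other cells, had 67.6, 266, 328 and 340.3. Marco was 2.11-fold higher at 24 h than at 6 h, whereas Gpnmb was 1.05-fold. Tlr2, a receptor for bacterial lipopeptides, was the gene that was lower, and it was picked out after its values were seen, with 141, 165 and 169.5 on the insulin arrays, against 671 at 0 h.

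Markers of other blood and vessel cells were mostly too dim to read. In the lists for T and NK cells (8 genes measured), B cells (5), neutrophils (8), mast cells (5), red cell precursors (4) and endothelium (6), 4 of the 36 genes were above the mark, namely Cd3e, Zap70, Epor and Kdr. None of the 36 was at least 2-fold higher or lower than at 0 h at any time, though a dim probe set would not show a small change. Over all genes 7.27% to 8.22% were higher and 3.48% to 3.94% lower by that much. No B cell or mast cell gene reached the mark on any array, and of the neutrophil genes 1 did at 12 and 24 h. T cell genes Cd3e (139, 129, 124 and 129) and Zap70 (439, 458, 409 and 446) were level, as was the vascular receptor gene Kdr with 123, 137, 111 and 123. Epor, the erythropoietin receptor, had 133, 109.5 and 129 on the insulin arrays, against 207 at 0 h, which was 1.56 to 1.89-fold lower. In the list for dendritic cells and MHC class II, 0, 1 and 1 of 7 genes passed 2-fold above 0 h, which is not set apart from the shares of all genes. H2-Eb1, an MHC class II chain, had 83.6, 128, 118 and 136, and Flt3, a receptor of dendritic cell precursors, had 98.0, 104, 106 and 94.96. Cd74, the invariant chain, was lower, with 87.6, 95.7 and 101 on the insulin arrays, against 162 at 0 h.

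**Figure D4:**
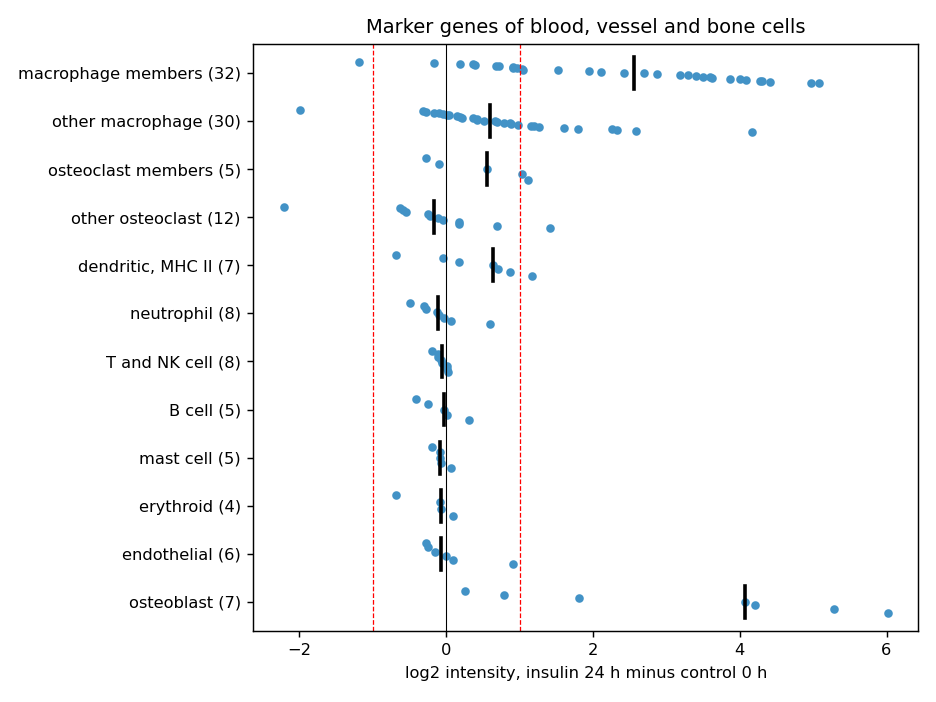
Log2 intensity of insulin 24 h minus control 0 h for each gene of 12 lists, 1 point per gene, with a black bar at the list median, the number of genes in brackets and dashed lines at 2-fold. The macrophage members have a median of 2.56 and the osteoblast genes one of 4.07, while the lists of lymphocytes, neutrophils, mast cells, red cell precursors and endothelium lie between the dashed lines.

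Osteoblast genes differed in the same direction as the macrophage genes, both against 0 h and between insulin arrays. At each time 5 of the 7 passed 2-fold above 0 h, against 7.27% to 8.22% of all genes. Between 24 h and 6 h, 4 were at least 1.5-fold higher at the later time, against 1.28% of all genes, with a median of 0.77 on the log2 scale. Alpl, the alkaline phosphatase of mineralising cells, was 2.18-fold higher at 24 h than at 6 h, Pth1r, the parathyroid hormone receptor, 2.06-fold, and Ibsp, bone sialoprotein, 1.49-fold. Higher intensities at 24 h than at 6 h were thus also seen in genes of the labelled cell type.

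Ligands that act on this lineage were read beside their receptors. Csf1 had 1985, 3713, 3824 and 3671, and Il34, the second ligand of CSF1R, had 96.7, 140.3, 152 and 145, so both were level between the insulin arrays while Csf1r was 1.49-fold higher at 24 h than at 6 h. Tnfsf11, which encodes RANKL, had 23.6, 67.2, 78.9 and 81.1, and Tnfrsf11b, its decoy receptor osteoprotegerin, had 19.1, 376, 579.9 and 652. Tnfrsf11b was 1.73-fold and Tnfsf11 1.21-fold higher at 24 h than at 6 h. The chemokine Ccl2, which draws in monocytes, had 1229, 905 and 913 on the insulin arrays, against 1589 at 0 h.

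Because Spi1 is a member and its product binds a purine-rich site, the 250 bases before each start site were searched on both strands. RefSeq promoters in GRCm38.p6 were found for 25 of the 37 genes. GAGGAAGT, a form of the PU.1 site, was found in 1 of 25 (C1qc), against 2.79% of 27025 genes with a promoter in that table. TGACTCA, the AP-1 site, was found in 2 of 25 (Cd68 and Cd84), against 5.16%, and TGACCT, searched for comparison, in 6 of 25, against 15.8%. With so few matches no difference from other promoters can be read. A match is only a run of letters, and its absence from this window says nothing of the factor. The 3 promoters are shown as the places where the letters occur, 5′ to 3′ along the gene, with the matches in capitals as read from the opposite strand. In C1qc (chr4:136892915-136893164, minus strand) the PU.1 letters lie 188 to 195 bases before the start. In Cd68 (chr11:69666171-69666420, minus strand) the AP-1 letters lie 143 to 149 and 18 to 24 bases before it, and in Cd84 (chr1:171839447-171839696, plus strand) 223 to 229 bases before it.
C1qc: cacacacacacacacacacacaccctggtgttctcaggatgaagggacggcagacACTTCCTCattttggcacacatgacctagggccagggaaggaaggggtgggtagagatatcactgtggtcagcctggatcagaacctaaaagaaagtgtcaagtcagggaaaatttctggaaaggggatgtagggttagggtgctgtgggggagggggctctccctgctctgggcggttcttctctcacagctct
Cd68: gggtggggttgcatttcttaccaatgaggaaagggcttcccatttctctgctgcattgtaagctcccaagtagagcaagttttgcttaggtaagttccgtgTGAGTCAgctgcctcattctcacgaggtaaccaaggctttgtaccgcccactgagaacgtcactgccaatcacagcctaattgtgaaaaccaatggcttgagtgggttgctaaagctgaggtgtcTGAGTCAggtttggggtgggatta
Cd84: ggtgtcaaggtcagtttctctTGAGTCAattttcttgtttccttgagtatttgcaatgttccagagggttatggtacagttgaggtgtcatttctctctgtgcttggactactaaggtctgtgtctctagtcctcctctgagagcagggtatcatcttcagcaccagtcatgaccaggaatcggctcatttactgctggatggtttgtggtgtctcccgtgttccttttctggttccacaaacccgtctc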

How the data were processed

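RNA of 4 samples was labelled with biotin by a 3′ in vitro transcription kit and hybridised to Affymetrix arrays, per the labels. The deposited table gives 1 linear intensity for each of 45101 probe sets, 64 of them controls, and the submitters' processing notes name RMA. The sources used here do not give its software, version or probe definition, and RMA compresses differences of dim probe sets.

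Gene names came from the platform annotation, which can be old. It gave 1 symbol to 34958 probe sets (18194 genes) and several to 932, which were left out. Intensities were converted to log2, and folds are ratios between single arrays, with no test. Counts used 2-fold against 0 h and 1.5-fold between insulin arrays, over all members, whether bright or not. The members and the 11 other lists (110 entries, 10 without a probe set) were chosen with earlier results of these data known. Named were all members and, from each other list, up to 3 genes above the brightness mark with the largest mean difference from 0 h, plus Csf1, Il34, Tnfsf11 and Tnfrsf11b. Sp7, Col1a1, Col1a2 and Tlr2 were named outside this rule. Chromosomes and promoters came from RefSeq tables of GRCm38.p6. Alternatives were other fold thresholds, brightness filters, probe set rules, scalings between arrays and a pseudocount, with removal of chromosome medians and a floor at the brightness mark added after seeing the data. The counting was tested on simulated data. Software was Python 3.11.15, with tables in pandas 2.3.3, arithmetic in numpy 2.4.6 and plots in matplotlib 3.10.9.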

Additional observations from a re-analysis of the deposited data

How the results depend on the processing

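Counts of genes at least 2-fold higher than 0 h ranged from 16 to 26 at 6 h, 16 to 28 at 12 h and 18 to 29 at 24 h over 11 alternatives each, all within 1.5 times the reported counts. The highest counts are those at a threshold of 1.5-fold. Apart from the floor at the mark, no share of all genes was counted under these alternatives. Fewer genes were read in some of them, 35 without suffixed probe sets, 29 above the brightness mark and 21 above 2 times the mark. Of those 21 genes, 17, 16 and 18 passed at 6, 12 and 24 h. The macrophage medians at 6, 12 and 24 h stayed positive but moved by over 1.5-fold in these settings: 1.21, 1.55 and 1.62 with a gene's probe sets averaged, 1.21, 1.34 and 1.53 without suffixed probe sets, 1.07, 1.35 and 1.5 with a pseudocount of 64, 1.26, 1.64 and 1.87 with dim values raised to the mark, and 2.80, 3.31 and 3.55 with only genes above 2 times the brightness mark (3.18 at 24 h above the mark itself), which leaves fewer genes. The cause was not tested for the probe set rules, and a pseudocount or a floor shrinks differences of dim values by construction. A brightness filter on the mean of the 4 arrays lets genes that are dim at 0 h pass through their insulin arrays, which favours larger differences from 0 h by construction. Between insulin arrays the count for 24 h against 6 h was 23 at a looser fold, 2 at 2-fold and 8 with the pseudocount. For 12 h against 6 h it was 18 at the looser fold, 0 at 2-fold, 3 with a gene's probe sets averaged, 2 without suffixed probe sets and 2 with the pseudocount. For 24 h against 12 h it was 1 at the looser fold. No share of all genes was counted for these alternatives between insulin arrays. The macrophage median for 24 h minus 6 h stayed between 0.45 and 0.60, and the osteoclast median between -0.11 and 0.14. Against 0 h the osteoclast median ran from 0 with dim values raised to the mark, at each time, to 1.03, 1.11 and 1.08 at 6, 12 and 24 h among brighter genes, so it depends on which of the 5 genes are read. Of 968 values of single genes under alternatives, 62 moved by over 1.5-fold and 1 reversed: Laptm5 at 24 h minus 0 h was -0.31 without suffixed probe sets. A change of sign was counted as a reversal only where the reported difference passed its fold threshold. Smaller differences that changed sign were not counted, such as Trem2 at 24 h minus 0 h, with 0.91 reported and -0.45 without suffixed probe sets. No paired analysis was possible because each group holds 1 array. Brightness limits the dim genes Itgam, Cx3cr1, Ncf4, Oscar, Dcstamp and Atp6v0d2, for which a small change would not show.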
